A study of Homo sapiens with 16 samples.

Results

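TRHDE, ATP8B4 and SERTAD4 are 3 of the 26475 gene symbols measured in lung metastases of A375 MA2-Luc cells, a human melanoma line. They were chosen by their measured RNA levels in tumours treated with inhibitors, where they were lower on a ketogenic than on a high fat diet. Because that choice used the values of the treated tumours, the difference between the diets under inhibitors is given here as a description, with no test. All 3 genes were among the 16012 that passed a filter on low counts.

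The cells (250000 per mouse) were injected behind the eye into NSG mice, an immunodeficient strain that lacks T, B and natural killer cells and keeps myeloid cells, and poly-A RNA of the metastases was sequenced in 16 libraries, 4 in each of 4 groups. Mice with inhibitors ate a ketogenic or a high fat diet, and mice without inhibitors ate a ketogenic or a high fat diet. The inhibitors, directed at BRAF kinase and at MEK 1/2, were given by oral gavage 3 times a week for 5 weeks; the labels name their classes and not the compounds or doses. The controls are labelled as having no treatment and no vehicle is mentioned, so the inhibitors and the gavage cannot be told apart. All tumours come from 1 cell line. The labels speak of lung metastases, while the study design mentions culture of the line, and which material was extracted is not settled here. Replicates are called biological but are not tied to single mice, so p-values measure the spread between these libraries.

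BRAF and MEK are successive kinases of the pathway that activates ERK, and A375 cells carry an activating BRAF mutation. TRHDE encodes thyrotropin-releasing hormone degrading enzyme, a zinc aminopeptidase of the M1 family that is anchored in the plasma membrane with its active site outside the cell and inactivates the tripeptide hormone. ATP8B4 encodes a P4-ATPase; enzymes of this class are flippases that move phospholipids from the outer to the inner leaflet of membranes, most of them together with a CDC50 subunit of the TMEM30 family. SERTAD4 encodes a protein with a SERTA domain; its better studied relative SERTAD1 binds the cell cycle kinase CDK4 and acts with E2F transcription factors.

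The genes lie on 3 chromosomes. In GENCODE 29 (GRCh38), TRHDE spans 583.5 kb of chromosome 12 (72087266 to 72670757, plus strand), ATP8B4 324.6 kb of chromosome 15 (49858238 to 50182817, minus strand) and SERTAD4 13.8 kb of chromosome 1 (210232799 to 210246631, plus strand). Each of the 3 genes was picked as lower on the ketogenic diet under inhibitors. The promoter windows of RefSeq (build GRCh38.p14), 250 bases before to 50 bases after the annotated start, are shown so that their starts can be compared. They lie at chr12:72272120-72272419 (plus strand, TRHDE), chr15:50119184-50119483 (minus strand, ATP8B4) and chr1:210232546-210232845 (plus strand, SERTAD4). Capitals mark matches on either strand to the 6 motifs searched, which were TGANTCA for AP-1, GGAATG for TEAD factors, CCGGAA for ETS factors, CACGTG for the E-box, TCATGTG for the MITF M-box and TATAAA for the TATA box.
TRHDE: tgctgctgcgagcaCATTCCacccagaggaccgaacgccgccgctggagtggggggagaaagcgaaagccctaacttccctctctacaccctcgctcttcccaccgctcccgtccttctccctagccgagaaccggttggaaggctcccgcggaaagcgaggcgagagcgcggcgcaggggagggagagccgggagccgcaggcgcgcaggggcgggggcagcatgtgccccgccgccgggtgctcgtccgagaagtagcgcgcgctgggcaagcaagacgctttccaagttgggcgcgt
ATP8B4: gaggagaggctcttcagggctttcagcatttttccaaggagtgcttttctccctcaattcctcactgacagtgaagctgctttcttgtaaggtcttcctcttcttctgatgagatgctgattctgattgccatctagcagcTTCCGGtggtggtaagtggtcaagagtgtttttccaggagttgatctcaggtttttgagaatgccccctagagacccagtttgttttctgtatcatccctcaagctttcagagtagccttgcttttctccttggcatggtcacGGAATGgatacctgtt
SERTAD4: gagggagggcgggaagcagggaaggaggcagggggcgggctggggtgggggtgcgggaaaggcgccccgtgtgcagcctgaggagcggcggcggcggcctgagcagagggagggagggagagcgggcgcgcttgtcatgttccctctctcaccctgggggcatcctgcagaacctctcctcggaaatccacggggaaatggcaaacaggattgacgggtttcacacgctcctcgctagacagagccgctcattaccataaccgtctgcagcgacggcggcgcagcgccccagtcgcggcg
The TRHDE window held 1 match, a TEAD word read on the opposite strand 236 bases before the start. The ATP8B4 window held an ETS word 109 bases before the start and a TEAD word 34 bases after it. The SERTAD4 window held none, and neither did a second RefSeq window of that gene at chr1:210237036-210237335. Among 35116 RefSeq windows of the same length, 14% held the TEAD word, 17.2% the ETS word, 7.71% the AP-1 word, 7.26% the E-box, 2.92% the M-box and 11.5% the TATAAA word. No motif was thus shared by the 3 windows, and G and C made up 69.0%, 46.7% and 68.3% of the TRHDE, ATP8B4 and SERTAD4 windows. The RefSeq starts of TRHDE and ATP8B4 lie inside the GENCODE spans, so both genes have more than 1 annotated start, and which one was used was not measured.

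Levels below are CPM, the counts of a gene relative to the size of its library after scaling by the trimmed mean of M-values (TMM). Library totals ran from 37.1 to 77.3 M estimated counts. Genes of ribosomal RNA took 4.10 to 8.37% of the counts in the ketogenic libraries with inhibitors, 15.01 to 19.97% in the high fat libraries with inhibitors, 15.2 to 33.7% in the ketogenic libraries without inhibitors and 21.7 to 50.003% in the high fat libraries without inhibitors. Between the diets the share differed under inhibitors (exact two-sided permutation test, p = 0.0286, the smallest that 4 against 4 libraries allow; adjusted p = 0.0381 over 4 comparisons) and did not pass without them (p = 0.314 in the same test). Inhibitors against none had exact permutation p = 0.0286 on either diet. Of the defining markers of melanoma, SOX10 was at 726 to 934 CPM and MITF at 99.2 to 141 CPM, while the pigment genes PMEL and MLANA were at 0.802 to 5.07 and 0.0155 to 0.799 CPM.

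TRHDE RNA had 2 high and 2 low groups. It measured 3.11, 3.70, 5.03 and 2.95 CPM in the ketogenic tumours with inhibitors and 8.38, 12.5, 9.98 and 11.2 CPM in the high fat tumours with inhibitors. Without inhibitors it measured 8.86, 11.1, 9.76 and 6.84 CPM in the ketogenic tumours and 3.76, 4.37, 3.40 and 4.95 CPM in the high fat tumours. Every library of the high fat group with inhibitors and of the ketogenic group without them lay above every library of the other 2 groups. Among all genes tested, 3.68% had all ketogenic libraries below all high fat ones under inhibitors, 22.5% had all libraries with inhibitors above those without on the high fat diet, and 5.01% had them all below on the ketogenic diet. The highest low library (5.03 CPM, ketogenic with inhibitors) was below the lowest high library (6.84 CPM, ketogenic without inhibitors).

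**Figure D1:**
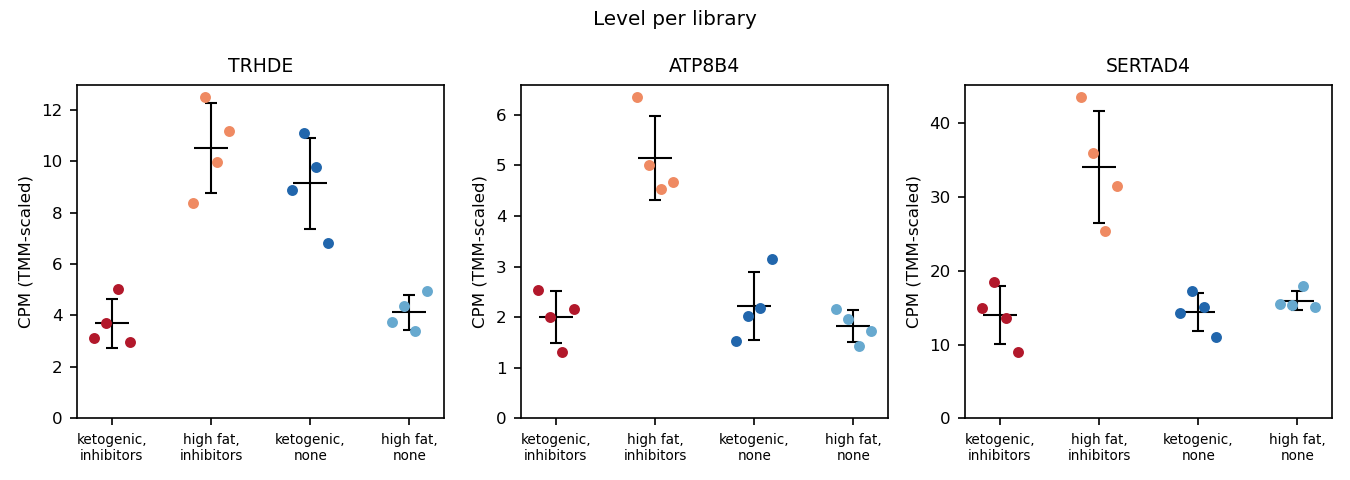
Level of TRHDE, ATP8B4 and SERTAD4 in each of the 16 libraries, in TMM-scaled CPM on a linear axis from 0, with 1 point per library, bars at the mean and whiskers of 1 SD (n = 4 per group). TRHDE is high in the high fat group with inhibitors and in the ketogenic group without them, while ATP8B4 and SERTAD4 are high in the high fat group with inhibitors.

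The mean TRHDE level was 3.70 ± 0.944 CPM in ketogenic tumours with inhibitors, 10.5 ± 1.75 in high fat tumours with inhibitors, 9.14 ± 1.78 in ketogenic tumours without inhibitors and 4.12 ± 0.685 in high fat tumours without inhibitors (SD, n = 4 each). From highest to lowest the order was high fat with inhibitors, ketogenic without, high fat without and ketogenic with. The 2 high groups overlapped with each other, as did the 2 low groups. The estimated counts behind these levels summed to 804 in ketogenic tumours with inhibitors, 2513 in high fat tumours with inhibitors, 2080 in ketogenic tumours without inhibitors and 865 in high fat tumours without inhibitors.

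Without inhibitors, the comparison that the choice of genes did not use, TRHDE rose on the ketogenic diet. The level was 2.22-fold that of the high fat tumours, a log2 difference of 1.15 with a standard error (SE) of 0.20 (adjusted p = 0.00361, edgeR quasi-likelihood test with Benjamini-Hochberg adjustment over all genes tested). The 95% interval of the fold ran from 1.66 to 2.96, and all 4 ketogenic libraries lay above all 4 high fat libraries. In this comparison 13.5% of all genes passed the threshold of adjusted p 0.05, 7.99% as higher and 5.51% as lower, and 13.3% had all ketogenic libraries above all high fat ones. The TRHDE call held in each of 8 fits that left out 1 library, with adjusted p up to 0.0180. It was lost without the 3 libraries in which ribosomal RNA took over 30% of counts (1 ketogenic and 2 high fat), where the log2 difference was 0.95 with adjusted p = 0.113. In that fit 0 of all genes passed in edgeR, with 2668 at an unadjusted p under 0.05, so none of the calls between the untreated diets given below held there.

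Under inhibitors the diets stood the other way round for TRHDE, at a log2 difference of -1.51 (SE 0.20) between ketogenic and high fat tumours. Inhibitors against none gave -1.31 (SE 0.20) on the ketogenic diet and 1.35 (SE 0.20) on the high fat diet. The difference between these inhibitor effects was -2.66 (SE 0.28). These 4 values describe the pattern the gene was picked for, or share its groups, and carry no test. Most of them share groups of libraries with each other, so they are not separate observations.

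ATP8B4 RNA was high in 1 group. It measured 2.54, 2.00, 1.32 and 2.17 CPM in ketogenic tumours with inhibitors and 6.35, 5.01, 4.53 and 4.67 CPM in high fat tumours with inhibitors. Without inhibitors it measured 1.53, 2.02, 2.18 and 3.15 CPM in ketogenic tumours and 2.16, 1.97, 1.44 and 1.73 CPM in high fat tumours. The 4 high fat libraries with inhibitors lay above the other 12, and those 12 overlapped across their 3 groups. Among all genes tested, 3.68% had all ketogenic libraries below all high fat ones under inhibitors. On the high fat diet 22.5% had all libraries with inhibitors above those without. The share with 1 group above the other 12 libraries was not counted. This layout is in part the one the gene was picked for. The mean was 2.01 ± 0.511 CPM in ketogenic tumours with inhibitors, 5.14 ± 0.830 in high fat tumours with inhibitors, 2.22 ± 0.680 in ketogenic tumours without inhibitors and 1.83 ± 0.315 in high fat tumours without inhibitors (SD, n = 4 each), and the order of the 3 low groups was within their spread. These levels rest on sums of 456 counts in ketogenic tumours with inhibitors, 1216 in high fat tumours with inhibitors, 473 in ketogenic tumours without inhibitors and 387 in high fat tumours without inhibitors.

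Without inhibitors, ATP8B4 did not pass the test between the diets, with a log2 difference of 0.27 (SE 0.24) for ketogenic over high fat tumours (adjusted p = 0.467, edgeR quasi-likelihood). The 95% interval of the fold, 0.848 to 1.73, leaves room for a change in either direction. Under inhibitors the log2 difference between ketogenic and high fat tumours was -1.35 (SE 0.24). Inhibitors against none gave -0.14 (SE 0.24) on the ketogenic diet and 1.49 (SE 0.24) on the high fat diet, and the difference between them was -1.63 (SE 0.34), all without a test.

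SERTAD4 RNA followed the same layout at higher CPM. It measured 14.9, 18.5, 13.6 and 8.92 CPM in ketogenic tumours with inhibitors and 43.5, 35.9, 25.4 and 31.5 CPM in high fat tumours with inhibitors. Without inhibitors it measured 14.3, 17.3, 15.1 and 11.0 CPM in ketogenic tumours and 15.5, 15.4, 17.9 and 15.03 CPM in high fat tumours. Again the 4 high fat libraries with inhibitors lay above the other 12, whose groups overlapped. This layout is in part the one the gene was picked for, and its share over all genes was not counted. The mean was 14.0 ± 3.96 CPM in ketogenic tumours with inhibitors (3122 counts in all), 34.1 ± 7.62 in high fat tumours with inhibitors (8045 counts), 14.4 ± 2.58 in ketogenic tumours without inhibitors (3279 counts) and 15.96 ± 1.34 in high fat tumours without inhibitors (3300 counts; SD, n = 4 each). The lowest of all 16 values was ketogenic replicate 4 with inhibitors, and the highest was high fat replicate 1 with inhibitors.

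Between the untreated diets SERTAD4 gave a log2 difference of -0.15 (SE 0.20), which did not pass (adjusted p = 0.648, edgeR quasi-likelihood), and the 95% interval of the fold was 0.678 to 1.205. This difference was 0.024 when libraries were scaled by their size alone. Under inhibitors the log2 difference between ketogenic and high fat tumours was -1.28 (SE 0.20), described without a test. Inhibitors against none gave -0.04 (SE 0.20) on the ketogenic diet and 1.09 (SE 0.20) on the high fat diet, and the difference between them was -1.14 (SE 0.28).

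**Figure D2:**
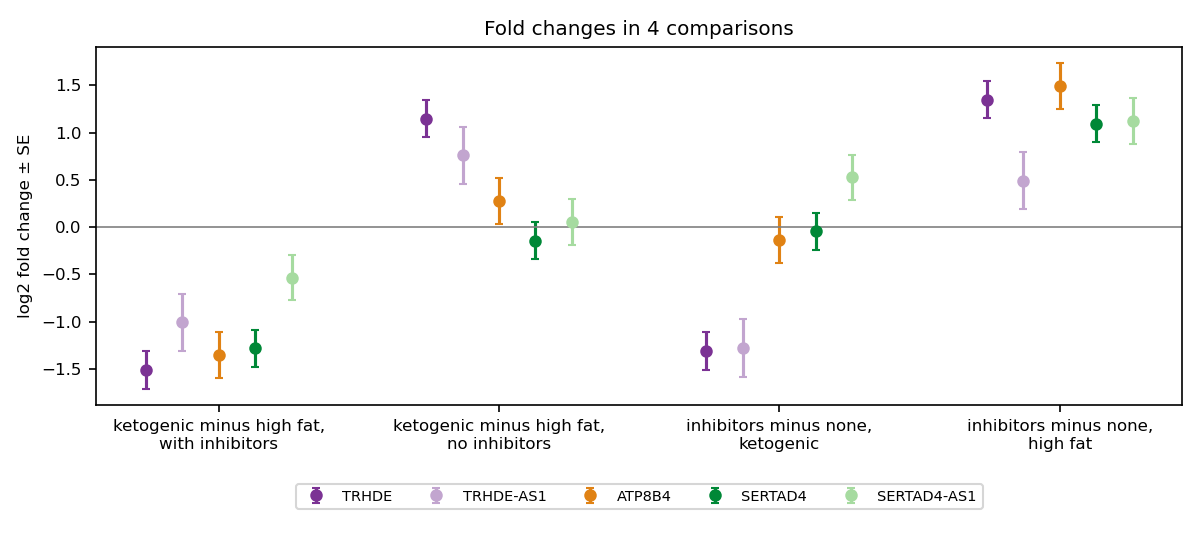
Log2 differences of TRHDE, ATP8B4 and SERTAD4 in the comparisons of the 4 groups, with 1 SE from the edgeR fit. The ketogenic minus high fat difference without inhibitors is the one tested, and there TRHDE stands at 1.15, with ATP8B4 at 0.27 and SERTAD4 at -0.15.

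Of the 16012 genes, 0.169% passed between the diets under inhibitors, 8 as higher (0.05%) and 19 as lower (0.119%). The genes next to TRHDE, ATP8B4 and SERTAD4 by size of the log2 difference were KRT6B, a keratin, at -1.55 and LAMA1, a laminin chain, at -1.20, and nothing is read from this order because it is that of the choice. RNA45S5, the ribosomal RNA precursor, was at -1.76, and the share of ribosomal RNA was lower in the same ketogenic libraries. With that share as a covariate, TRHDE gave -1.65 (SE 0.33), ATP8B4 -1.52 (SE 0.38) and SERTAD4 -0.99 (SE 0.30) between the diets under inhibitors. The share did not overlap between the diets under inhibitors, so a fit with it as covariate separates the share from the diet poorly. In that fit 0 of all genes passed in edgeR, with 848 at an unadjusted p under 0.05. Without the covariate 2032 genes had an unadjusted p under 0.05, and DESeq2 called 345.

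TRHDE and SERTAD4 each have an antisense RNA at the same place. TRHDE-AS1 (chromosome 12, 72253508 to 72274907, minus strand) shares 793 exon bases with TRHDE, and the RefSeq promoter window of TRHDE lies inside it. Estimated counts of TRHDE and of TRHDE-AS1 were whole numbers in 2 of 16 libraries each, within 0.015, whereas their sum was whole in all 16. The quantification therefore divided reads between both genes, and with no strand setting in the sources used here reads of either strand cannot be told apart. TRHDE took 66.5 ± 9.31% of the pair in ketogenic tumours with inhibitors, 72.5 ± 3.40% in high fat tumours with inhibitors, 65.3 ± 1.72% in ketogenic tumours without and 58.8 ± 5.22% in high fat tumours without inhibitors (SD, n = 4 each).

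TRHDE-AS1 averaged 2.00 ± 1.08 CPM in ketogenic tumours with inhibitors, 4.01 ± 0.967 in high fat tumours with inhibitors, 4.84 ± 0.942 in ketogenic tumours without inhibitors and 2.86 ± 0.228 in high fat tumours without inhibitors (SD, n = 4 each). The high fat libraries with inhibitors began at 2.87 CPM. Ketogenic libraries with inhibitors reached 3.36 CPM and untreated high fat libraries 3.10 CPM, so these groups overlapped. The log2 difference of TRHDE-AS1 between the untreated diets was 0.76 (SE 0.30), which did not pass (adjusted p = 0.0969, edgeR quasi-likelihood). With the pair added into 1 gene, the untreated ketogenic over high fat difference was 1.00 and passed (adjusted p = 0.00652, edgeR quasi-likelihood). The summed pair gave -1.35 between the diets under inhibitors, the direction of TRHDE alone.

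SERTAD4-AS1 (chromosome 1, 210231456 to 210234047, minus strand) starts inside SERTAD4, runs past the start of that gene and shares 174 exon bases with it. The RefSeq promoter window of SERTAD4 whose sequence is shown lies inside SERTAD4-AS1, as was the case for TRHDE and its antisense RNA. SERTAD4-AS1 measured 7.61, 4.66, 4.02 and 8.25 CPM in ketogenic tumours with inhibitors and 10.04, 8.69, 8.95 and 7.97 CPM in high fat tumours with inhibitors. Without inhibitors it measured 4.01, 4.03, 4.44 and 4.61 CPM in ketogenic tumours and 4.16, 3.18, 2.90 and 6.14 CPM in high fat tumours. Unlike SERTAD4, its groups overlapped between the diets under inhibitors, because 1 ketogenic library (8.25 CPM) lay above the lowest high fat one.
SERTAD4-AS1 rose with inhibitors on the high fat diet (log2 1.12, SE 0.24, adjusted p = 0.00186, edgeR quasi-likelihood), a comparison in which 42.3% of all genes passed. It did not pass between the diets under inhibitors (-0.54, SE 0.24, adjusted p = 0.358), on the ketogenic diet (0.53, SE 0.24, adjusted p = 0.255) or between the untreated diets (0.06, SE 0.24, adjusted p = 0.899). The rise on the high fat diet had adjusted p = 0.0584 without the 3 libraries rich in ribosomal RNA.

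**Figure D3:**
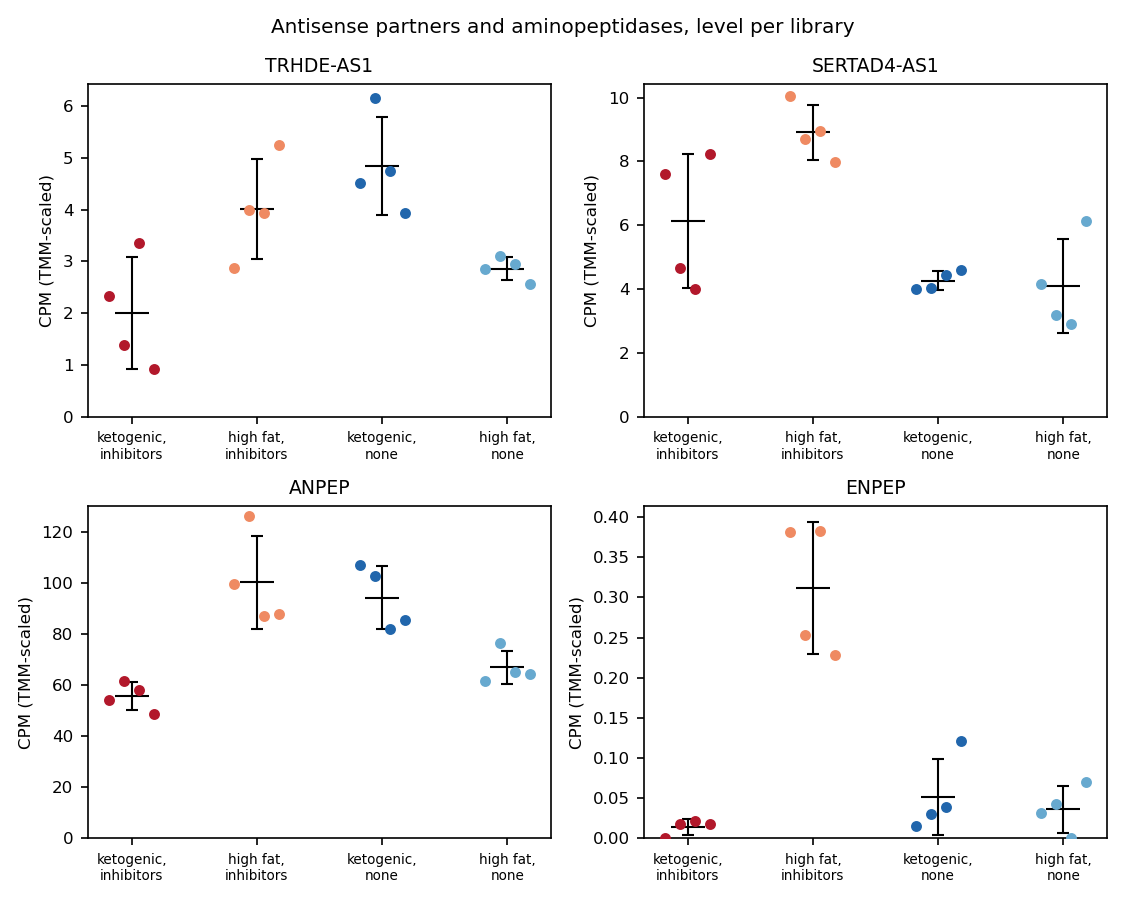
Levels in TMM-scaled CPM, 1 point per library, of the antisense RNAs TRHDE-AS1 and SERTAD4-AS1 and of the aminopeptidases ANPEP and ENPEP in the 4 groups, with means and 1 SD (n = 4). By mean, TRHDE-AS1 and ANPEP are highest in the high fat group with inhibitors and the ketogenic group without them. The high fat group with inhibitors overlaps the lower groups for TRHDE-AS1 and not for ANPEP. ENPEP is near 0 outside the high fat group with inhibitors.

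The M1 aminopeptidases, the family of TRHDE, trim single amino acids from the amino end of peptides. ENPEP passed the filter on low counts through the high fat group with inhibitors alone, so it is described without a test wherever that group is compared. Of the 9 others tested under inhibitors, ANPEP fell on the ketogenic diet, where 0.119% of all genes fell. Among the 9, 0 rose in edgeR or DESeq2, with 2 at an unadjusted p under 0.05. Their median log2 difference was -0.04, against 0.02 over all genes. Without inhibitors 2 of 10 rose on the ketogenic diet (ANPEP and RNPEP) and 1 fell (LTA4H), where 7.99% and 5.51% of all genes rose and fell, with a median of 0.18 against -0.02 over all genes. The list was drawn up with results of these data known, so its counts are a description.

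ANPEP, aminopeptidase N or CD13, is a surface enzyme that trims peptides outside the cell. It measured 54.2, 61.7, 58.3 and 48.9 CPM in ketogenic tumours with inhibitors and 99.7, 126, 86.9 and 88.1 CPM in high fat tumours with inhibitors. Without inhibitors it measured 107, 103, 81.9 and 85.5 CPM in ketogenic tumours and 61.7, 76.5, 65.4 and 64.6 CPM in high fat tumours. As for TRHDE, the libraries of 2 groups lay above all libraries of the other 2, and the same 2 groups were high. Among all genes tested, 3.68% had all ketogenic libraries below all high fat ones under inhibitors, and 13.3% had them all above without inhibitors. The share with the whole layout of 2 groups above the other 2 was not counted. ANPEP fell on the ketogenic diet under inhibitors (log2 -0.85, SE 0.13, adjusted p = 0.0179) and rose on it without them (0.49, SE 0.13, adjusted p = 0.0191, edgeR quasi-likelihood). The 2 inhibitor effects differed by -1.34 (SE 0.18, adjusted p = 0.00421), in a comparison in which 9.02% of all genes passed, 4.36% as higher and 4.66% as lower. That call was lost without the 3 libraries rich in ribosomal RNA (adjusted p = 0.0508, edgeR quasi-likelihood).

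The ANPEP call under inhibitors was lost without high fat replicate 2 (adjusted p = 0.0669) and with the ribosomal RNA share as covariate (adjusted p = 0.716, log2 -0.65, edgeR quasi-likelihood). It was also lost on library size alone (adjusted p = 0.103) and with only the groups compared in the fit (adjusted p = 0.145). The call without inhibitors was lost in 4 of 8 fits that left out 1 library, namely ketogenic replicate 1 (adjusted p = 0.0728) or 2 (0.0705) and high fat replicate 1 (0.0545) or 3 (0.0551).

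ENPEP, aminopeptidase A, cleaves acidic residues from peptides such as angiotensin. It had 0, 1, 1 and 1 counts in ketogenic tumours with inhibitors and 21, 15, 24 and 14 in high fat tumours with inhibitors. Without inhibitors it had 1, 2, 2 and 5 counts in ketogenic tumours and 2, 2, 0 and 4 in high fat tumours. The 4 high fat libraries with inhibitors, the group through which the gene passed the filter, lay above the other 12. Under inhibitors the ketogenic level was 0.0434 of the high fat level by 3 against 74 counts, described without a test.

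Of the others in the family, RNPEP, aminopeptidase B, rose on the untreated ketogenic diet (log2 0.28, SE 0.07, adjusted p = 0.0221, edgeR quasi-likelihood). LTA4H, which makes leukotriene B4 and also trims peptides, fell (-0.47, SE 0.11, adjusted p = 0.0141). Both calls were lost without ketogenic replicate 1 (adjusted p = 0.0559 for RNPEP and 0.0555 for LTA4H) or 2 (0.0713 and 0.0603), and that of LTA4H also without high fat replicate 3 (0.0519). Inhibitors against none on the high fat diet gave 4 higher (ANPEP, C9orf3, LNPEP and RNPEP) and 2 lower (LTA4H and RNPEPL1) of 9, where 20.6% and 21.7% of all genes rose and fell. On the ketogenic diet ANPEP fell (log2 -0.76, SE 0.13, adjusted p = 0.00732, edgeR quasi-likelihood) and 0 of the 10 rose, with 1.74% of all genes passing (0.856% higher, 0.887% lower). Of the 10, 2 had an unadjusted p under 0.05, and DESeq2 gave the same counts.

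The hormone that TRHDE degrades acts on the thyroid axis. Of 12 tested genes of thyrotropin-releasing hormone and thyroid hormone handling, 0 passed between the diets under inhibitors in edgeR, with 0 at an unadjusted p under 0.05 and 0 in DESeq2. Among them the thyroid hormone receptors THRA and THRB gave log2 differences of -0.26 and 0.22. In untreated tumours 1 of the 12 rose and 1 fell on the ketogenic diet, where 7.99% of all genes rose and 5.51% fell. KLF9, a transcription factor induced by thyroid hormone and glucocorticoids, fell (-0.72, SE 0.15, adjusted p = 0.00834, edgeR quasi-likelihood). RXRA, the partner of several nuclear receptors, rose (0.34, SE 0.11, adjusted p = 0.0495), a call lost in 7 of 8 fits that left out 1 library.

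The P4-ATPases and their TMEM30 subunits, the family of ATP8B4, gave 0 calls among 15 others tested between the diets under inhibitors in edgeR. Of these, 2 had an unadjusted p under 0.05 and DESeq2 called 1 as lower. Log2 differences ran from -0.84 (TMEM30B) to 0.53 (ATP8B3), with a median of -0.08. Both ends rest on few counts. TMEM30B had 49 in ketogenic and 93 in high fat tumours with inhibitors, and ATP8B3 had 154 and 115. The relatives closest by name gave -0.18 for ATP8B2 (SE 0.16) and 0.26 for ATP8B1 (SE 0.87, at about 0.131 CPM in ketogenic and 0.106 CPM in high fat tumours with inhibitors). Of the 15, 0 passed between the untreated diets in edgeR, with 1 at an unadjusted p under 0.05 and 1 called as lower by DESeq2.

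ATP9A, a P4-ATPase of endosomes that works without a TMEM30 subunit, had the lowest p of the 15 between the diets under inhibitors. It averaged 118 ± 31.9 CPM in ketogenic tumours with inhibitors, 198 ± 19.97 in high fat tumours with inhibitors, 126 ± 15.04 in ketogenic tumours without and 105 ± 13.4 in high fat tumours without inhibitors (SD, n = 4 each). All 4 high fat libraries with inhibitors (177 to 222 CPM) lay above the other 12, a layout whose share over all genes was not counted. The diets under inhibitors differed by -0.74 (SE 0.16), which did not pass (adjusted p = 0.0695, edgeR quasi-likelihood), while the inhibitor effects differed between the diets by -1.001 (SE 0.22, adjusted p = 0.0192). The last call was lost without the 3 libraries rich in ribosomal RNA (adjusted p = 0.123), on library size alone (0.0636) and with the ribosomal RNA share as covariate (0.0919, edgeR quasi-likelihood). Scramblases, which let phospholipids cross in both directions, gave 0 calls among 11 tested between the diets in either setting in edgeR and in DESeq2, with 1 under inhibitors and 3 without at an unadjusted p under 0.05.

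**Figure D4:**
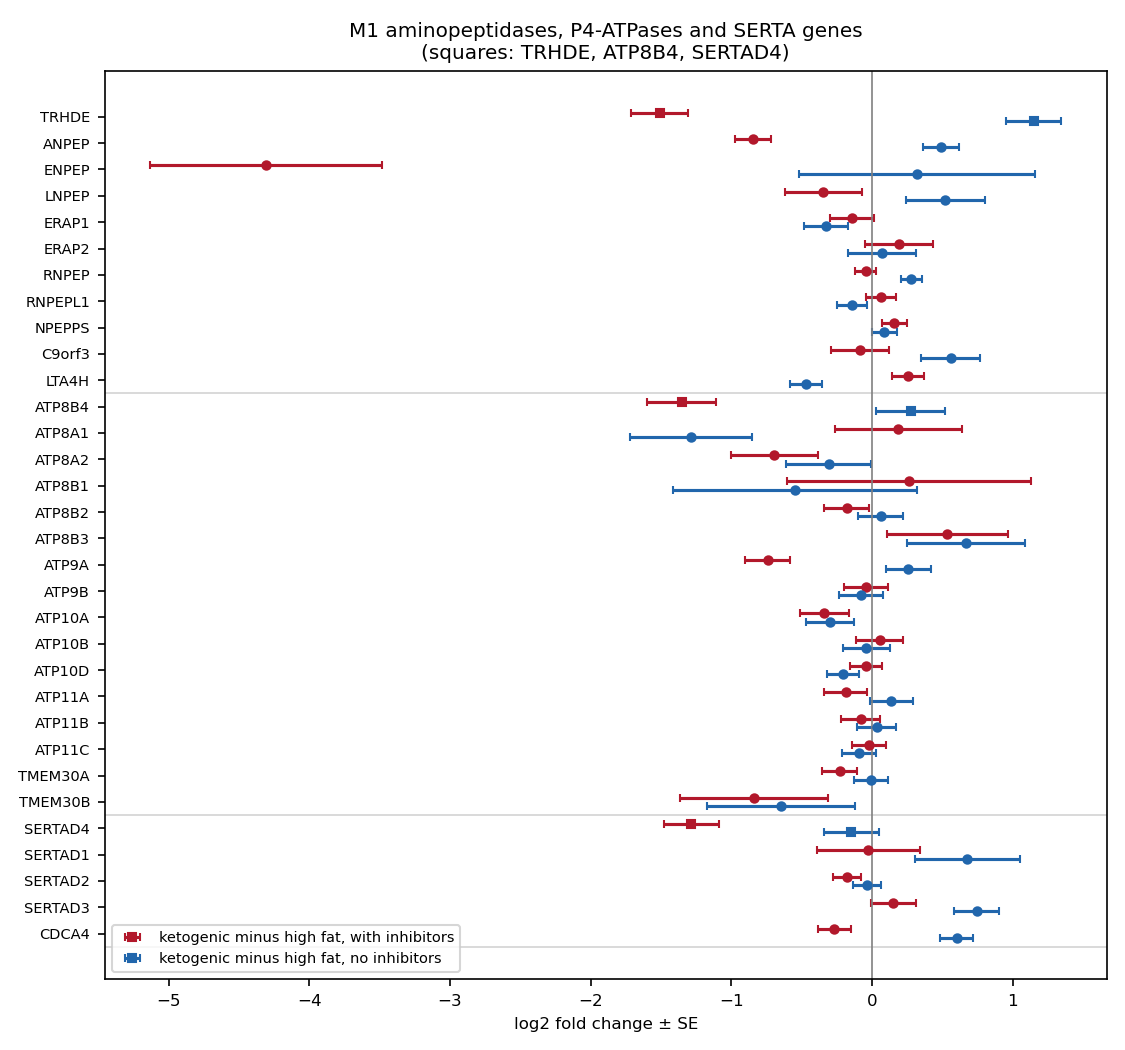
Log2 difference of ketogenic minus high fat tumours, with and without inhibitors, for each tested gene of the M1 aminopeptidases, the P4-ATPases with their subunits and the SERTA domain family. TRHDE, ATP8B4 and SERTAD4 stand at -1.51, -1.35 and -1.28 with inhibitors, and ANPEP, tested there, stands at -0.85.

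The SERTA domain family holds 4 other genes, all tested. Under inhibitors 0 of the 4 passed between the diets in edgeR or DESeq2, with 1 at an unadjusted p under 0.05, and the log2 differences were -0.02 for SERTAD1, -0.18 for SERTAD2, 0.15 for SERTAD3 and -0.27 for CDCA4. Without inhibitors 2 of the 4 rose on the ketogenic diet, against 7.99% of all genes, SERTAD3 (0.74, SE 0.16, adjusted p = 0.00884) and CDCA4 (0.60, SE 0.12, adjusted p = 0.00588, edgeR quasi-likelihood). SERTAD3 is a transcriptional cofactor, and CDCA4 a nuclear protein tied to E2F activity. With inhibitors on the high fat diet 3 of the 4 rose, against 20.6% of all genes, by log2 1.44 for SERTAD1 (SE 0.38), 0.80 for SERTAD3 (SE 0.16) and 0.83 for CDCA4 (SE 0.12), with adjusted p = 0.00753, 0.00113 and 9.86e-05 in the edgeR quasi-likelihood test. On the ketogenic diet 0 of the 4 passed in edgeR or DESeq2, with 0 at an unadjusted p under 0.05.

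Partners of the SERTA family in the cell cycle, namely E2F and DP transcription factors, retinoblastoma proteins, CDK4 and CDK6 with their cyclins and inhibitors, gave 0 calls among 20 tested between the diets under inhibitors in edgeR. There, 2 had an unadjusted p under 0.05 and DESeq2 called 2 as higher; E2F5 was at 0.68 (adjusted p = 0.0994) and CDK6 at 0.37 (adjusted p = 0.123, edgeR quasi-likelihood). Between the untreated diets 9 rose and 1 fell on the ketogenic diet, where 7.99% and 5.51% of all genes rose and fell, among them E2F1 (1.69, SE 0.22, adjusted p = 0.00171) and the CDK4 inhibitor CDKN2D (1.02, SE 0.17, adjusted p = 0.00298, edgeR quasi-likelihood), while SERTAD4 stood at -0.15.

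The genes most like each of the 3 were found by the root mean square difference of centred log2 CPM over the 16 libraries, among all genes tested; smaller means more alike, and part of the likeness is the pattern the genes were picked for. For TRHDE, whose own spread around its mean was 0.716, the nearest were FLI1 (0.341), IL1R1 (0.366), CLDN20 (0.374), EPHA4 (0.403) and ANPEP (0.409). FLI1 is an ETS transcription factor, IL1R1 the interleukin-1 receptor, CLDN20 a claudin and EPHA4 an ephrin receptor. TRHDE-AS1 ranked 9 (0.450).

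For ATP8B4 (own spread 0.668) the nearest were CYP1A1 (0.379), a cytochrome P450 induced by aryl hydrocarbons, SERTAD4-AS1 (0.411), the orphan nuclear receptor NR4A2 (0.432), GAS1 (0.436) and the sorting nexin SNX9 (0.438). For SERTAD4 (own spread 0.592) they were GAS1 (0.295), a membrane protein that binds hedgehog ligands, LAMA1 (0.306), CHPF2 (0.343), a chondroitin synthesis enzyme, ATP9A (0.353) and the Wnt receptor FZD6 (0.356).
SERTAD4 ranked 12 by its likeness to ATP8B4 and ATP8B4 ranked 169 by its likeness to SERTAD4. TRHDE ranked 4372 by its likeness to ATP8B4 and 4709 by its likeness to SERTAD4. By likeness to TRHDE, SERTAD4 ranked 704 and ATP8B4 ranked 2137. The 3 genes thus made 2 patterns over the 4 groups, which differ in the untreated ketogenic tumours.

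**Figure D5:**
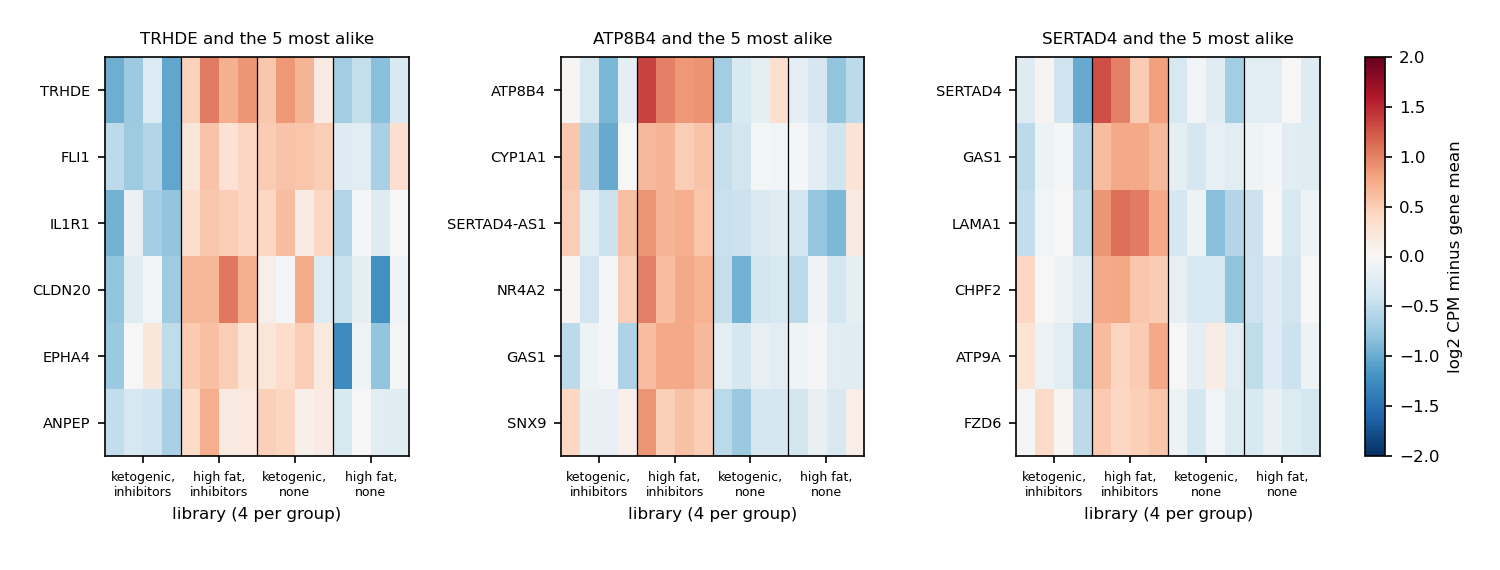
Centred log2 CPM (log2 CPM minus the gene's mean over 16 libraries, colour scale from -2 to 2) of TRHDE, ATP8B4 and SERTAD4, each above the 5 genes most like it, with 1 column per library. The block for TRHDE is high in the high fat libraries with inhibitors and the ketogenic libraries without them, and the blocks for ATP8B4 and SERTAD4 are high in the high fat libraries with inhibitors.

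The 3 nearest tested genes on each side were read for the same comparison. Under inhibitors the lowest adjusted p among the 6 neighbours of ATP8B4 was that of FGF7, a growth factor, at a log2 difference of -1.46 (adjusted p = 0.199, edgeR quasi-likelihood). Beside SERTAD4 it was that of C1orf74 at 0.30 (adjusted p = 0.324), and beside TRHDE that of GLIPR1L2 at 1.03 (adjusted p = 0.441). Without inhibitors GABPB1-AS1 (-0.74), TRAF5 (-0.57) and TBC1D15 (-0.36) fell on the ketogenic diet and TMEM19 (0.62) rose, with adjusted p = 0.00665, 0.00858, 0.0409 and 0.00979 in the edgeR quasi-likelihood test. With the overlapping antisense RNAs counted, that was 1 of 6 for ATP8B4, 1 of 7 for SERTAD4 and 2 of 7 for TRHDE. In this comparison 13.5% of all genes passed. The farthest neighbour lay 369.5 kb from ATP8B4, 1080 kb from SERTAD4 and 2720 kb from TRHDE. Neighbours were placed by GENCODE 29, in which 14857 of the 16012 symbols had 1 location.

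In these bulk samples fewer cells of a type and less RNA per cell cannot be told apart. The rows are human gene symbols, the host was a mouse, and how mouse reads were handled is not stated. The marker sums below can thus hold RNA of the human line or mouse reads, and they are not amounts of host cells. Endothelial markers summed to 37.4 to 53.2 CPM in ketogenic tumours with inhibitors, 77.8 to 88.5 in high fat tumours with inhibitors, 35.7 to 45.3 in ketogenic tumours without and 22.8 to 43.1 in high fat tumours without inhibitors, a layout like that of ATP8B4 and SERTAD4. Most of that sum was KDR, a VEGF receptor, at 26.3 to 46.6 CPM in ketogenic tumours with inhibitors, 70.3 to 81.3 in high fat tumours with inhibitors, 25.0 to 36.3 in ketogenic tumours without inhibitors and 15.4 to 34.4 in high fat tumours without inhibitors. The other 9 markers summed to 6.42 to 11.5 CPM in ketogenic tumours with inhibitors, 7.24 to 8.28 in high fat tumours with inhibitors, 9.03 to 11.4 in ketogenic tumours without inhibitors and 6.13 to 9.31 in high fat tumours without inhibitors. The diets overlapped in that sum both with and without inhibitors. Of 6 endothelial markers tested, 0 passed between the diets under inhibitors in edgeR, 1 had an unadjusted p under 0.05 and DESeq2 called 1 as lower; KDR gave -1.01 (SE 0.23, adjusted p = 0.0922, edgeR quasi-likelihood).
Macrophage and neutrophil markers, looked at because ATP8B4 is known from leukocytes, summed to 50.4 to 80.9 CPM in ketogenic tumours with inhibitors, 49.7 to 65.7 in high fat tumours with inhibitors, 54.4 to 89.4 in ketogenic tumours without and 61.2 to 79.1 in high fat tumours without inhibitors. In that sum CD68 alone was at 28.7 to 68.7 CPM over the 16 libraries. LYZ reached 4.76 CPM and S100A9 4.33 CPM, while CD14 reached 0.592, ITGAM 0.490 and CSF1R 0.406 CPM. The neutrophil gene MPO was at 0 in all 16 libraries. Leukocyte markers summed to 5.63 to 16.2 CPM in ketogenic tumours with inhibitors, 12.7 to 17.2 in high fat tumours with inhibitors, 8.23 to 18.9 in ketogenic tumours without inhibitors and 2.44 to 3.27 in high fat tumours without inhibitors. Of those, 3 of 5 tested rose on the ketogenic diet without inhibitors, where 7.99% of all genes rose, and 4 of 5 rose with inhibitors on the high fat diet, where 20.6% of all genes rose. TRHDE was higher in the same groups. Of the 5, 0 passed between the diets under inhibitors in edgeR or DESeq2, with 0 at an unadjusted p under 0.05. Other sums also differed without overlap between the untreated diets. On the ketogenic diet, where TRHDE was higher, the fibroblast sum was lower, and the erythroid and immediate early sums were higher. Erythroid and plasma markers summed to 6.57 to 12.9 CPM in ketogenic and 9.03 to 13.4 CPM in high fat tumours with inhibitors. Without inhibitors they summed to 10.9 to 13.2 CPM in ketogenic and 5.56 to 7.12 CPM in high fat tumours. Fibroblast and pericyte markers summed to 67.3 to 107 CPM in ketogenic tumours with inhibitors, 55.6 to 90.6 in high fat tumours with inhibitors, 78.3 to 133 in ketogenic tumours without inhibitors and 144 to 160.1 in high fat tumours without inhibitors. Immediate early and heat shock genes summed to 930.3 to 1676 CPM in ketogenic tumours with inhibitors, 930.7 to 1198 in high fat tumours with inhibitors, 869 to 1674 in ketogenic tumours without inhibitors and 643 to 851 in high fat tumours without inhibitors. In the fibroblast, erythroid and immediate early lists 0 genes passed between the diets under inhibitors in edgeR or DESeq2. There, 2 had an unadjusted p under 0.05, both immediate early or heat shock genes.
The part of such cells and signals in the levels of TRHDE, ATP8B4 and SERTAD4 was not tested.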

How the data were processed

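The authors deposited 1 table of expected counts, as estimated by RSEM, with 26475 gene symbols and 16 libraries and no scaling for depth. Bowtie2 2.1.0, RSEM 1.2.15 and build hg38 are named, per the submitters' processing notes. How mouse reads were handled, which annotation was used and whether counting used strand are not stated there. Values that were not whole (13.0%) were rounded.

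Genes were filtered with filterByExpr over 4 groups (16012 kept), scaled by TMM and tested in 1 edgeR 4.0.16 quasi-likelihood model of all 16 libraries, with Benjamini-Hochberg adjustment over all genes and a threshold of 0.05 (R 4.3.3). DESeq2 1.42.0 and limma 3.58.1 were alternatives, and the fit was tested on simulated data. Log2 CPM used a prior count of 0.5. Named were the 3 genes; family and antisense genes, in full where they passed between diets; the 2 lowest p per other list and diet comparison; the 5 genes most alike; and 3 neighbours a side. The genes and lists were chosen with earlier results of these data known. Same-numbered replicates were not treated as pairs. Correlations of their deviations ran from -0.161 to 0.181 over 24 pairs, 4 over 0.1, and differently numbered replicates were not compared.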

Additional observations from a re-analysis of the deposited data

Results flagged for a closer look

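Of 76 sets of 4 libraries checked, 4 held a library far from the other 3 by Dixon's criterion, about as many as chance gives at 1 in 20. ENPEP was at 0 CPM in ketogenic replicate 1 with inhibitors. SERTAD3 was at 14.5 CPM in high fat replicate 1 with inhibitors, KLF9 at 192 CPM in ketogenic replicate 2 without inhibitors and E2F1 at 13.6 CPM in high fat replicate 2 without inhibitors. None of these was a value of TRHDE, ATP8B4 or SERTAD4.

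For 9 of the genes named beside them, the effect of inhibitors on the ketogenic diet minus that on the high fat diet passed the edgeR quasi-likelihood test of the difference. On the log2 scale it was -1.34 for ANPEP, -1.001 for ATP9A, -0.87 for CDCA4, -1.91 for E2F1, -1.14 for CDKN2D and -1.52 for KDR, and it was 0.73 for LTA4H, 0.77 for KLF9 and 1.16 for E2F5. All 9 calls were lost without the 3 libraries rich in ribosomal RNA, where 0 genes passed in edgeR (2919 at an unadjusted p under 0.05). With the ribosomal RNA share as covariate 8 were lost, all but ANPEP, and on library size alone 6, all but ANPEP, CDCA4 and E2F1. The KLF9 call was also lost in 11 of 16 fits that left out 1 library; the other 8 held in all 16.

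TRHDE gave -2.66, TRHDE-AS1 -1.77 and ENPEP -4.63. For each, every ketogenic library with inhibitors lay below the mean of the untreated ketogenic libraries. Every high fat library with inhibitors lay above the mean of the untreated high fat ones. The libraries overlapped for TRHDE-AS1 on the high fat diet (from 2.87 CPM with inhibitors, up to 3.10 CPM without). For ENPEP they overlapped on the ketogenic diet (up to 0.0220 CPM with inhibitors, from 0.0155 CPM without). The share of such layouts over all genes was not counted. The differences of inhibitor effects of these genes were not tested, because the choice of TRHDE used its groups and TRHDE-AS1 shares its reads. ENPEP passed the filter on low counts through the high fat group with inhibitors alone.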

How the results depend on the processing

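The untreated diet difference of TRHDE kept its direction in every alternative run and its call in all but the fit without the 3 libraries rich in ribosomal RNA (0.95, adjusted p = 0.113 in edgeR). That setting and the summed TRHDE and TRHDE-AS1 were chosen after seeing the data. Library size alone gave 0.024 for SERTAD4 between the untreated diets and, for inhibitors on the high fat diet, 1.61 for TRHDE, 1.74 for ATP8B4 and 1.39 for SERTAD4. With the antisense pair summed, TRHDE gave 1.06 for inhibitors on the high fat diet and -2.36 for the difference of inhibitor effects. SERTAD4 gave 0.34 for inhibitors on the ketogenic diet with the ribosomal RNA share as covariate. SERTAD4-AS1 between the untreated diets turned to -0.26 without the 3 libraries and lay between -0.072 and 0.32 when 1 library was left out. The causes were not tested.

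Counts of all genes called moved as follows. In the untreated diet comparison, 2163 became 3346 with only the groups compared and 0 without the 3 libraries (2668 unadjusted; 778 to 2640 with 1 library left out). Between the diets under inhibitors, 27 became 345 in DESeq2, 1 on library size alone, 0 with only the groups compared (1475 at an unadjusted p under 0.05) and 0 with the covariate (848; left-out range 3 to 47). For inhibitors on the high fat diet, 6771 became 3858 without the 3 libraries (5446 to 6779). For inhibitors on the ketogenic diet, 279 became 880 in DESeq2, 981 on library size alone, 56 with only the groups compared, 0 with the covariate (1029 unadjusted) and 53 without the 3 libraries (88 to 437). For the difference of inhibitor effects, 1444 became 2487 in DESeq2, 238 on library size alone, 30 with the covariate and 0 without the 3 libraries (2919 unadjusted; 407 to 2636).

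Calls over the 7 pathway and family lists, without TRHDE, ATP8B4 and SERTAD4 and without TRHDE-AS1 and ENPEP where they were not tested, moved likewise. For the untreated diets, 17 became 0 without the 3 libraries (7 to 19 with 1 library left out). Between the diets under inhibitors, 1 became 4 in DESeq2, 0 on library size alone, 0 with only the groups compared and 0 with the covariate (0 to 2). For inhibitors on the high fat diet, 39 became 23 without the 3 libraries (31 to 39). For inhibitors on the ketogenic diet, 3 became 7 in DESeq2, 0 with the covariate and 1 without the 3 libraries (2 to 4). For the difference of inhibitor effects, 15 became 8 on library size alone, 1 with the covariate and 0 without the 3 libraries (8 to 19).

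The labels share replicate numbers, and the main fit did not pair the libraries by them. With the replicate block, TRHDE between the untreated diets was 1.13 (adjusted p = 0.00496 in edgeR), the count of all genes there was 2241, and list calls between the diets under inhibitors were 1. Depth limits ENPEP, at 0 to 24 counts a library, ATP8B1, at 23 to 34 counts a group, and TMEM30B, at 49 to 93 counts a group.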
